A study of Homo sapiens with 2 samples.

Results

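Chromosome 15, chromosome 5 and the first 25 Mb of chromosome 10 were the stretches of the autosomes selected on the share of reads, which was higher in the SKNO-1 library than in the SKNO1-siAE library. CpG sites that each library covered with 5 reads or more were placed in tiles, fixed windows of 500 bp, and a tile was used when it held at least 10 such sites. This gave 8478 tiles in the 3 segments, of 99847 tiles on all autosomes and 101183 tiles on all chromosomes. Chromosome 5 held 4953 of them, chromosome 15 held 2496 and chromosome 10 below 25 Mb held 1029. They were built from 270544 of the 3168726 sites that the libraries shared.

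The data were 1 MCC-Seq library of each of 2 cell lines. SKNO-1 is an acute myeloid leukemia line with the t(8;21) translocation, which joins RUNX1 (AML1) to RUNX1T1 (ETO). SKNO1-siAE was made from SKNO-1 with a lentiviral vector, pRRLcPPT.hPGK, that encodes the siAGF1 oligonucleotides against the fusion site of the AML1-ETO mRNA, so it carries the integrated vector in addition to the silenced fusion. A line with an empty or unrelated vector was not analysed here, and no number of clones is given for SKNO1-siAE in the sources used here. Neither line was replicated, and any test on reads therefore compares these 2 libraries and not the conditions.

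In MCC-Seq, bisulfite turns unmethylated cytosine into a base read as thymine, and probes capture CpG-rich parts of the genome for sequencing. Methylation of a CpG-rich promoter usually goes with a silent gene, while methylation within gene bodies is common in active genes. At imprinted genes, only the copy from one parent is methylated, so a control region read from both copies normally shows a level near the middle of the scale. The number of reads over a stretch depends on how much of its DNA entered the library, on capture and on amplification, and gains and losses of chromosome arms are common in leukemia lines. Parts of chromosome 5 are known for deletion in myeloid disease, and the proximal long arm of chromosome 15 holds the imprinted domain of the Prader-Willi and Angelman syndromes.

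The sequences of the tiles with the largest promoter difference in each direction in each segment are shown first, since the results below rest on CpGs of this kind, together with those of the imprinted SNRPN promoter and of an intron of IGF1R. They are windows of at most 200 bases outside annotated UTRs, read 5′ to 3′ on the + strand of GRCh37 (hg19), and capitals mark the CpGs that were measured in both libraries. The windows more methylated in SKNO-1 lie at MGA (chr15:41914279-41914478, intron), SMIM15 (chr5:60457780-60457979, intron) and MLLT10 (chr10:21814268-21814467, intron). The mean site level within these windows was 0.977, 0.973 and 0.803 in SKNO-1 and 0, 0 and 0.0113 in SKNO1-siAE.
MGA: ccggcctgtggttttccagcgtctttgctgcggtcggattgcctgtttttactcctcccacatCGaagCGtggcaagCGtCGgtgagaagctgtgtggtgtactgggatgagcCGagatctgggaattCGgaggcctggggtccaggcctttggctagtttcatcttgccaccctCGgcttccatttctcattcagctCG
SMIM15: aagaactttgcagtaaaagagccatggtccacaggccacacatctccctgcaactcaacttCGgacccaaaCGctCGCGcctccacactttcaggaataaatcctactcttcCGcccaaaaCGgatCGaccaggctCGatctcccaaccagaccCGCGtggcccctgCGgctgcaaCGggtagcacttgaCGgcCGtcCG
MLLT10: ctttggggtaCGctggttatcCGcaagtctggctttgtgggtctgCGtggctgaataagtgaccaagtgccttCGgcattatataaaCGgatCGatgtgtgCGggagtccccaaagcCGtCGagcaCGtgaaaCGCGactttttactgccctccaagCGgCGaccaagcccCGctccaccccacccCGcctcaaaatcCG

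The windows less methylated in SKNO-1 lie at ANXA2 (chr15:60690357-60690456, near its start), CAMLG (chr5:134073501-134073700, upstream) and TASOR2 (chr10:5734518-5734717, near a transcript start). Averaged over sites, they were at 0, 0 and 0.0238 in SKNO-1 and at 1, 0.992 and 0.992 in SKNO1-siAE. In the windows at SNRPN (chr15:25200280-25200479) and in the IGF1R intron (chr15:99409273-99409472), the average was 0.568 and 0.0122 in SKNO-1 and 0.981 and 0.998 in SKNO1-siAE.
ANXA2: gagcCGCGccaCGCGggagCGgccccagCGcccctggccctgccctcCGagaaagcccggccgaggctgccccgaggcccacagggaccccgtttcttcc
CAMLG: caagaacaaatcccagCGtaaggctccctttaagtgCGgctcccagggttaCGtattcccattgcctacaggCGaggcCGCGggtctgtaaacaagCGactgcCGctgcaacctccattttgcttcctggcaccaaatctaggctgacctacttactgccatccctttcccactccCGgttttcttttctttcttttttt
TASOR2: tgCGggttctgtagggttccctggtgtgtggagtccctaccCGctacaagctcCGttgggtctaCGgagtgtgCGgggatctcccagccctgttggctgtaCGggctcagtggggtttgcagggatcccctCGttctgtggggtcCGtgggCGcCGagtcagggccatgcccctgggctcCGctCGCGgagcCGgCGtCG
SNRPN: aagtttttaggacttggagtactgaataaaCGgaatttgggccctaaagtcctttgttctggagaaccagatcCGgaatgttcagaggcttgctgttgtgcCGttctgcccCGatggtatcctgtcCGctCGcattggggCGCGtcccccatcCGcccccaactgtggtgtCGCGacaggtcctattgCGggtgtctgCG
IGF1R: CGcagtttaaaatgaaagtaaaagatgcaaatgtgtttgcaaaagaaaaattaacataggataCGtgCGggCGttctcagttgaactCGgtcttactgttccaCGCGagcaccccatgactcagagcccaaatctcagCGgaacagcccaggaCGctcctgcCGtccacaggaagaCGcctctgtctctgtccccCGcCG

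Shared sites had a median of 16 reads in SKNO-1 and 15 in SKNO1-siAE, with mean levels of 0.587 and 0.655. At mitochondrial sites, which should be unmethylated, 0.351% and 0.378% of reads were methylated. As a check on the cell type, the SPI1 promoter, which is active in myeloid cells, was at 0 in both libraries, while CD34 was at 0.986 and 0.974. The largest promoter tile of 4 of the 6 measured myeloid and progenitor genes differed by at least 0.2, 2 in each direction, while over all autosomal genes 6.92% were higher and 24.1% lower, with ELANE (0.881 and 0) and PRTN3 (0.344 and 0) higher in SKNO-1, and KIT (0.00223 and 0.506) and CD33 (0.510 and 0.908) lower. Among genes of other lineages, EPCAM (0.892 and 0.969) was methylated in both libraries, CD79A was near 0 in both (0 and 0.0745), and GFAP was lower in SKNO-1 (0 and 0.537). The intervals given for levels and their differences cover counting error only, since no molecular identifiers are described for these reads. Read counts of tiles and longer stretches are sums over sites, so a read that covers several CpGs is counted at each of them. The intervals take these counts as independent and are too narrow for that reason.

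The read ratio is described without a test, because it chose the segments. At shared sites, chromosome 10 below 25 Mb held 843019 reads in SKNO-1 and 463747 in SKNO1-siAE, which were 1.24% and 0.696% of the autosomal reads of each library. The ratio of these shares was 1.79, a log2 read ratio of 0.84. Chromosome 15 held 1878760 and 1308333 reads (2.773% and 1.963%; log2 ratio 0.50), and chromosome 5 held 3957525 and 3121414 (5.84% and 4.68%; log2 ratio 0.32). As the median of 5 Mb bins the ratio of chromosome 5 was 0.60, and over the sites of each library's own that of chromosome 15 was 0.76. Chromosomes 15 and 5 ranked 1 and 2 of the 22 autosomes, and chromosome 3, the next one, stood just outside the selection at 0.18. The other autosomes together were at -0.04 and the lowest, chromosome 18, was at -0.56.

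The higher share did not run evenly along the segments. In bins of 1 Mb with at least 200 shared sites, all 23 bins of chromosome 10 below 25 Mb were at 0.6 or more, as were 51 of 77 bins of chromosome 15 and 80 of 148 bins of chromosome 5. In the other autosomes, 91 of 2072 bins were, among them 19 of 136 bins on chromosome 4, 17 of 75 on chromosome 14 and 15 of 171 on chromosome 3. Within 0.2 of 0 lay 19 bins of chromosome 15 and 42 of chromosome 5, so these chromosomes held long stretches with like read shares. The limits of 0.6 and 0.2, and that of 0.4 used for runs below, were set after the bins were seen.

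On chromosome 10, the log2 ratio lay between 0.63 and 1.04 over the whole stretch, with a median of 0.82 and its highest bin at 18 to 19 Mb. The bins just inside the 25 Mb limit were at 0.71 and 0.63. The bins just outside it were at 0.23, 0.13 and 0.01, and chromosome 10 from 25 Mb on was at 0.02 in all. The step lay at the limit of 25 Mb, but that limit is part of a selection made on the read shares, so the match is no separate result.

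Chromosome 5 was a mosaic. When neighbouring bins at or above 0.4 and below 0.4 were joined into runs, shorter ones than 3 bins being added to the run before, the longest run reached from 54 to 139 Mb, with a median of 0.80 over 67 bins. The run that followed, from 139 to 181 Mb, covered the end of the long arm with a median of -0.03 over 37 bins, and none of them reached 0.4. This distal stretch held 1898 of the 4953 tiles of chromosome 5, so a large share of the selected tiles lay where the read shares were alike.

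The short arm of chromosome 5 was less regular. From 1 to 20 Mb the median was 0.68, and the highest bin of the chromosome, at 14 to 15 Mb, reached 1.16 (90182 and 39712 reads). From 20 to 38 Mb the median was 0.25 over 14 bins, and the lowest bin, at 33 to 34 Mb, was at -0.62 with more reads in SKNO1-siAE (10033 and 15191). A short run from 38 to 42 Mb had a median of 0.64 and the run from 42 to 54 Mb a median of 0.05.

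Chromosome 15 alternated in the same way. Its median was 0.91 from 22 to 36 Mb (14 bins, 0.63 to 0.98), 0.27 from 37 to 45 Mb (8 bins, -0.08 to 0.73), 0.83 from 45 to 57 Mb (9 bins, 0.73 to 0.96), 0.02 from 57 to 72 Mb (15 bins, -0.13 to 0.16) and 0.77 from 72 to 103 Mb (30 bins, -0.01 to 0.96). The highest bin lay at 29 to 30 Mb, within the first of these runs, and the lowest at 68 to 69 Mb. Whether the DNA copy number of the lines differs in these runs was not tested.

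The requirement of 5 reads in both libraries left out more of the SKNO-1 sites in the segments than elsewhere. On chromosome 10 below 25 Mb, 52856 sites were deposited for SKNO-1 and 35658 for SKNO1-siAE, and the shared sites were 54.6% and 80.9% of them. On chromosome 15 they were 53.5% and 74.0%, and on chromosome 5 they were 61.3% and 74.1%. On the other autosomes these shares were 68.6% and 67.2%. The median depth of a shared site was 22 and 12 reads on chromosome 10 below 25 Mb, 18 and 12 on chromosome 15 and 18 and 14 on chromosome 5, against 15 and 16 on the other autosomes, so the levels in SKNO1-siAE are the less precise ones in the segments.

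The methylation level was not used in the selection. The segments were less methylated in SKNO-1 than in SKNO1-siAE, by about as much as the other autosomes. The mean tile level on chromosome 15 was 0.548 in SKNO-1 and 0.614 in SKNO1-siAE, on chromosome 5 it was 0.608 and 0.671, and on chromosome 10 below 25 Mb it was 0.686 and 0.752. The corresponding values of the other autosomes were 0.593 and 0.661. The mean differences were -0.0659, -0.0628 and -0.0661, against -0.0678 over the other 91369 tiles.

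Single autosomes varied more than that. Over the other 20 autosomes, chromosome 10 entering with its part from 25 Mb on, the mean difference ranged from -0.0849 to -0.0526, and the segments ranked 11 (chromosome 15), 5 (chromosome 5) and 12 (chromosome 10 below 25 Mb) of the 23 stretches, counted from the smallest decrease. The difference between a segment and the other autosomes was 0.00194 for chromosome 15 (95% counting interval 0.000852 to 0.00302), 0.00507 for chromosome 5 (0.00434 to 0.00581) and 0.00173 for chromosome 10 below 25 Mb (5.61e-05 to 0.00341). When 10 reads per site and library were required, it was -0.00185, -0.000602 and 0.00714, and in tiles of 1000 bp it was -0.000262 for chromosome 10 below 25 Mb, so the sign was not stable on any of the 3 segments. At sites with like depth in the libraries, within 25%, it was -0.0202 for chromosome 15, the largest move seen.

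Chromosome 10 below 25 Mb also differed in its makeup. Of its tiles, 21.7% lay at promoters, the interval from 1500 bp before to 500 bp after the start of a protein-coding transcript, and 49.9% lay in gene bodies. On chromosome 15 these shares were 43.1% and 30.5%, on chromosome 5 they were 36.1% and 33.2%, and on the other autosomes 38.7% and 37.5%. Over the 3 segments, promoter tiles averaged 0.374 in SKNO-1 against 0.428 in SKNO1-siAE, gene-body tiles 0.766 and 0.813, and intergenic tiles 0.685 and 0.782. The intergenic tiles differed by -0.0970 on average, more than the promoter (-0.0537) and gene-body tiles (-0.0472), and the same order held on the other autosomes (-0.0915, -0.0651 and -0.0556). Within classes, the levels of chromosome 10 below 25 Mb in SKNO-1 were 0.412 at promoters, 0.775 in gene bodies and 0.739 between genes, against 0.365, 0.774 and 0.679 on the other autosomes.

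A tile was counted as higher or lower when its level differed by at least 0.2 in SKNO-1 minus SKNO1-siAE. In the segments, 350 tiles (4.13%) were higher and 1263 (14.9%) lower in SKNO-1. Over all autosomal tiles, 3.36% were higher and 15.1% were lower. The share higher in SKNO-1 was 4.01% on chromosome 15, 4.22% on chromosome 5 and 3.98% on chromosome 10 below 25 Mb, which ranked 3, 2 and 4 of the 23 stretches. Chromosome 9, which is not among the segments, had the highest share at 4.43%, and the lowest was 2.45%, so the segments lay within the range of the other autosomes. The share lower in SKNO-1 was 14.62%, 14.98% and 15.16%, with ranks 14, 11 and 9.

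Within the segments, the share of differing tiles was compared between bins with and without the higher read ratio. In bins at 0.6 or more, 176 of 4113 tiles (4.28%) were higher and 596 (14.5%) lower in SKNO-1. In segment bins within 0.2 of 0, 118 of 2982 tiles (3.96%) were higher and 450 (15.1%) were lower. In such bins on the other autosomes, the shares were 3.31% and 15.2%. Among the runs of the 3 segments, the largest share of lower tiles was in the run from 20 to 38 Mb of chromosome 5, with 52 of 207 tiles (25.1%), where tiles averaged 0.584 in SKNO-1 against 0.702 in SKNO1-siAE.

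Across tiles, the read ratio of a tile had little relation to its difference. Pearson's r was 0.08 over the tiles of chromosome 15, 0.07 over those of chromosome 5 and 0.03 over those of chromosome 10 below 25 Mb, and Spearman's rho was 0.05, 0.06 and 0.07. On the other autosomes r was 0.07 and rho was 0.06. The median log2 read ratio was 0.50 in the tiles higher in SKNO-1, 0.30 in the tiles lower and 0.41 in the rest, against 0.08, -0.13 and -0.03 on the other autosomes. These are descriptions, since tiles of a library share its depth and its capture.

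At single sites, a 2-sided Fisher's exact test on methylated and unmethylated reads was adjusted by Benjamini-Hochberg over all shared sites, and calls needed an adjusted p below 0.05 together with a difference of at least 0.2. In the segments, 14643 of 270544 sites (5.41%) were called higher and 31704 (11.7%) lower in SKNO-1, while over all shared sites 4.4% were higher and 11.7% lower. On chromosome 10 below 25 Mb the shares were 5.65% and 11.3%, on chromosome 5 they were 5.54% and 11.9% and on chromosome 15 they were 5.07% and 11.5%. The power of this test rises with the reads of a site. Where the depths of a site in the libraries differed by no more than 25% of the smaller one, 5.08% of the segment sites and 4.41% of the sites on the other autosomes were called higher.

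The strands of a CpG can be compared within a library as a measure of spread. Over 6201 segment tiles with at least 5 sites on each strand, the strands differed by at least 0.2 in 8.53% of tiles in SKNO-1 and 6.68% in SKNO1-siAE. Between the libraries, 20.3% of these tiles differed by as much on the + strand and 19.6% on the - strand. On both strands 796 tiles did, 786 of them in the same direction. The corresponding share between the libraries on the other autosomes was 19.1% and 19.4%.

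Tiles with a level from 0.3 to 0.7 are called half-methylated here. In the segments there were 1367 such tiles in SKNO-1 (16.1%) and 840 in SKNO1-siAE (9.91%), against 15.1% and 9.53% on the other autosomes. The contrast was largest on chromosome 10 below 25 Mb, with 200 tiles (19.4%) in SKNO-1 and 103 (10.0%) in SKNO1-siAE. The rest of chromosome 10 had 20.3% and 10.8%, so this part resembled its own chromosome. Chromosome 5 had 16.3% and 9.97%, and chromosome 15 had 14.3% and 9.74%. On chromosome 5 the half-methylated tiles of SKNO-1 were most frequent from 1 to 20 Mb, with 284 of 1121 tiles (25.3%), and in the long high run from 54 to 139 Mb they made up 8.79%.

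Of the 1367 segment tiles that were half-methylated in SKNO-1, 412 (30.1%) were also half-methylated in SKNO1-siAE, 276 (20.2%) had a level over 0.9 there and 58 (4.24%) a level under 0.1. On the other autosomes these shares were 29.7%, 19.4% and 2.97%. The tiles half-methylated in SKNO1-siAE were over 0.9 in SKNO-1 in 63 of 840 cases (7.5%) and under 0.1 in 108 (12.9%), against 6.10% and 16.1% on the other autosomes. Tiles half-methylated in SKNO-1 were thus more often near full than near no methylation in SKNO1-siAE, and for tiles half-methylated in SKNO1-siAE it was the reverse.

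For genes, the promoter tile with the largest difference stood for the gene. A promoter tile needed only to overlap the promoter interval, so its sites could lie outside that interval. The segments held 1345 protein-coding genes with such a tile, of which 104 (7.73%) were higher and 289 (21.5%) lower in SKNO-1 by at least 0.2. Over all autosomal genes, 6.92% were higher and 24.1% lower. The counts were 37 and 104 of 501 genes on chromosome 15, 61 and 164 of 759 on chromosome 5, and 6 and 21 of 85 on chromosome 10 below 25 Mb. Differences of at least 0.7 were seen at 28 genes higher and 89 genes lower in SKNO-1, and at 228 and 1112 of the 15752 autosomal genes. In the following, the level in SKNO-1 is given first and the level in SKNO1-siAE second.

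On chromosome 15, the promoter tile with the largest gain in SKNO-1 was that of MGA, a MAX partner that acts in a repressive Polycomb complex. It was at 0.977 and 0 over 15 sites (395 of 405 reads methylated in SKNO-1, 0 of 170 in SKNO1-siAE). These sites lay in an intron, past the 500 bp that follow the nearest transcript start. NR2F2, a nuclear receptor of venous and mesenchymal development, had 0.947 and 0 over 26 sites, and SKOR1, a SKI-family corepressor, had 0.933 and 0 over 17 sites. GATM, the first enzyme of creatine synthesis, had 0.838 and 0, and MKRN3, an imprinted gene of the Prader-Willi domain, had 0.824 and 0. All 5 tiles were at 0 in SKNO1-siAE. The bins that hold them were at a log2 read ratio of 0.61 for MGA, 0.62 for NR2F2, -0.13 for SKOR1, 0.83 for GATM and 0.77 for MKRN3.

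The largest promoter losses on chromosome 15 ran over nearly the whole scale. ANXA2, which encodes a calcium-dependent membrane-binding protein, was at 0 in SKNO-1 and 1 in SKNO1-siAE over 15 sites (0 of 90 and 111 of 111 reads), and so was GPR176, an orphan G-protein-coupled receptor gene, over 11 sites. IVD, an enzyme of leucine breakdown, had 0.00397 and 1. MTHFS, an enzyme of folate metabolism, had 0 and 0.993 over 41 sites, and MCTP2 had 0.0298 and 1. These 5 promoters were thus almost fully methylated in SKNO1-siAE and almost free of methylation in SKNO-1.

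On chromosome 5, the promoters more methylated in SKNO-1 were those of SMIM15 (0.955 and 0), UBLCP1, a phosphatase of the nuclear proteasome (0.959 and 0.00503), BASP1, a membrane-bound signal protein (0.947 and 0), KCNN2, a calcium-activated potassium channel (0.969 and 0.0231), and C5orf63 (0.959 and 0.0175). UBLCP1 had the most data, with 73 sites, 2162 of 2306 reads methylated in SKNO-1 and 20 of 2184 in SKNO1-siAE (pooled levels 0.938, 95% Wilson interval 0.927 to 0.947, and 0.00916, 0.00594 to 0.0141). It lies in the distal stretch without a higher read ratio (bin value 0.01). The SMIM15 tile held 1020 reads in SKNO-1 and 243 in SKNO1-siAE, and the KCNN2 tile held 153 and 344, so single tiles could depart from the read ratio of their bin in either direction.

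The promoters less methylated in SKNO-1 on chromosome 5 belonged to CAMLG, which takes part in the insertion of membrane proteins (0 and 0.992), FAM169A (0 and 0.989), P4HA2, a subunit of collagen prolyl hydroxylase (0.0124 and 0.997), RAI14, an actin-binding protein (0.0176 and 1), and NKD2, an antagonist of Wnt signalling (0.0252 and 1). P4HA2 had the most sites, 36, and 7 of 558 reads were methylated in SKNO-1 against 273 of 274 in SKNO1-siAE. These losses lay in bins with log2 ratios of 0.39 to 0.86.

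On chromosome 10 below 25 Mb, the 5 named gains were taken from 6 genes that were higher, against 37 and 61 on chromosomes 15 and 5, and they reach down to smaller values. The largest was at a tile shared by the overlapping genes MLLT10, a fusion partner of KMT2A in leukemia, and SKIDA1, with 0.803 and 0.0113 over 34 sites (1189 of 1440 reads and 5 of 607). The sites of this tile lay within the 500 bp that follow the nearest SKIDA1 start, but past those that follow the nearest MLLT10 start. FRMD4A, a scaffold protein of cell polarity, had 0.767 and 0, and VIM, the intermediate filament vimentin, had 0.593 and 0. COMMD3 had 0.311 and 0, and GDI2, a regulator of Rab GTPases, had 0.961 and 0.733. The VIM tile differed by 0.26 on the + strand and 0.83 on the - strand, the COMMD3 tile by 0.15 and 0.43, and the FRMD4A tile by 0.95 and 0.65, so the strands of these 3 tiles were uneven.

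The named losses on this segment lay between -0.970 and -0.851. TASOR2 had 0.0224 and 0.993, FAM171A1 had 0.0216 and 0.987, CCDC3 had 0.0759 and 0.992, PLXDC2 had 0.0964 and 0.974, and ST8SIA6, a sialyltransferase, had 0.0445 and 0.895. At ST8SIA6, 408 reads in SKNO-1 stood against 119 in SKNO1-siAE. In each of these tiles, every called site was lower in SKNO-1.

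**Figure D1:**
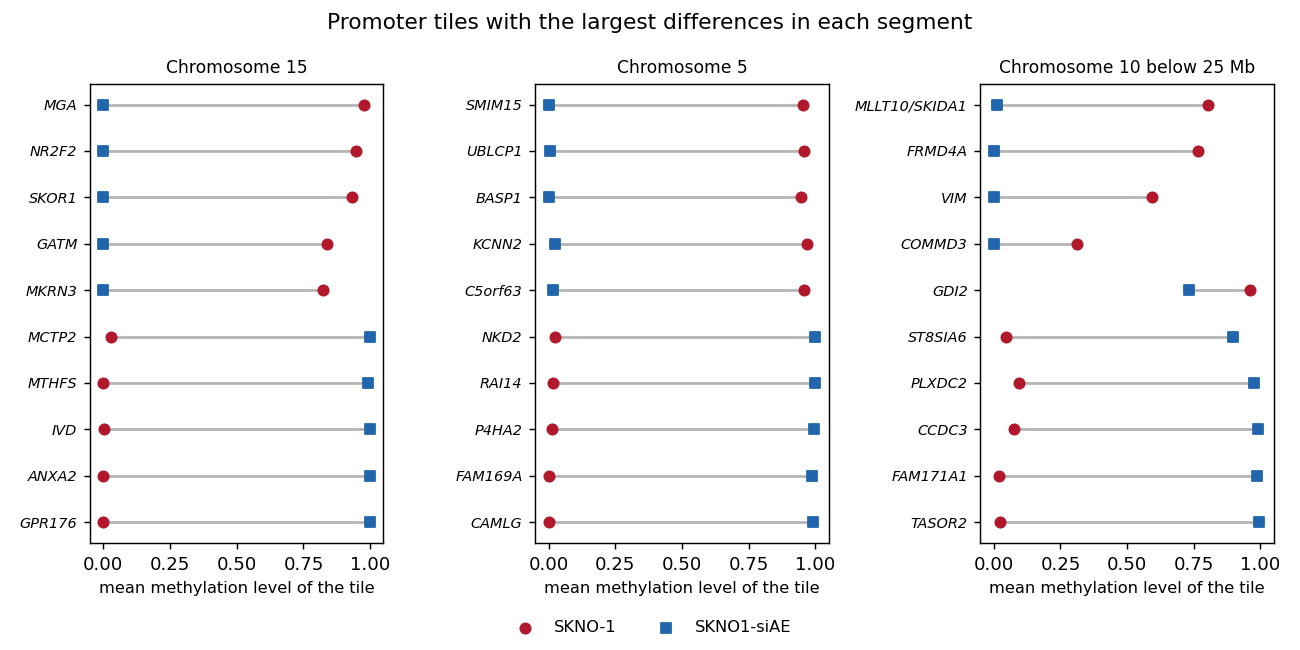
Each row is a promoter tile, with its mean methylation level in SKNO-1 (red circle) and SKNO1-siAE (blue square), for the 5 largest differences in each direction on chromosome 15, chromosome 5 and chromosome 10 below 25 Mb. The tiles of chromosomes 15 and 5 span at least 0.824 of the scale, the value of MKRN3, whereas VIM, COMMD3 and GDI2 on chromosome 10 span 0.593, 0.311 and 0.228.

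The imprinted domain of the long arm of chromosome 15 lies in the first run of higher read ratio. Of 10 imprinted genes of chromosome 15, IGF1R among them, 5 had gained and 4 had lost at least 0.2 in SKNO-1, against 6.92% and 24.1% of all autosomal genes. The median difference was 0.0935, against -0.0188. SNRPN and SNURF share a promoter tile at the imprinting centre, which was at 0.458 in SKNO-1 and 0.987 in SKNO1-siAE over 31 sites (203 of 445 reads and 370 of 377). NDN, expressed from the paternal copy, was at 0.480 and 0.958. The pooled level of the SNRPN tile was 0.456 in SKNO-1 (95% Wilson interval 0.410 to 0.503) and 0.981 in SKNO1-siAE (0.962 to 0.991). The value in SKNO-1 lay near the middle of the scale, but it averaged over sites with levels from 0 to 1. Other SNRPN promoter tiles were at 0.862 and 0.819 (chr15:25068501-25069000) and at 0.830 and 0.922 (chr15:25199001-25199500).

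Another 4 genes of the domain were higher in SKNO-1. MKRN3 was at 0.824 and 0, ATP10A, a phospholipid transporter, at 0.917 and 0.309, GABRA5 at 0.875 and 0.380 and UBE3A, the Angelman ubiquitin ligase, at 0.292 and 0.0377. MAGEL2 differed by less than 0.2 (0.724 and 0.792). GABRA5 had only 50 reads in SKNO1-siAE, summed over 10 sites, the minimum of 5 at each. The strands were uneven at GABRA5 (differences of 0.80 on the + and 0.19 on the - strand) and UBE3A (0.17 and 0.48), so each fell under 0.2 on one strand. The named tiles of MKRN3 and NDN, neighbours that are both normally methylated on the maternal copy, differed in opposite directions between the libraries. Another NDN promoter tile (chr15:23931501-23932000, 23 sites) differed little, at 0.832 and 0.913. The bin that holds both genes had a log2 read ratio of 0.77.

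Along single sites, SNRPN had levels between 0 and 1 in SKNO-1, with a median of 0.4 and 15 of 31 sites from 0.3 to 0.7, while in SKNO1-siAE the median was 1 and the lowest site was at 0.75. At 16 of these sites the adjusted p was under 0.05, the smallest being 2.19e-06 (Fisher's exact test). The level in SKNO-1 was 0.143 at the first measured site of the SNRPN tile and 1 at the last. The strands of a CpG also differed in SKNO-1, with 0 of 17 and 7 of 20 reads methylated at 1 of them. At MKRN3, all 13 sites were at 0 in SKNO1-siAE and between 0.632 and 1 in SKNO-1. At NDN, 6 of 13 sites were called lower and 1 further site with an adjusted p under 0.05 (0.031) was slightly higher, at 0.989 and 0.864. The levels in SKNO-1 had a median of 0.333 with sites at both ends of the scale.

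IGF1R, the receptor of insulin-like growth factor, has an intronic region that is described as imprinted. Its gene-body tile with the largest loss in SKNO-1 (chr15:99409001-99409500, intron) was at 0.0808 in SKNO-1 and 0.991 in SKNO1-siAE over 41 sites (126 of 867 reads and 700 of 707), and 38 of its sites were called lower. In SKNO-1, 32 of the 41 sites were at 0. Another intronic tile (chr15:99443001-99443500) was at 0.983 and 0 over 10 sites, a larger difference in the opposite direction. The largest promoter tile of IGF1R was at 0.351 and 0. The 45 tiles between the first and the last SNORD116 or SNORD115 gene (chr15:25296624-25515005) were at a mean of 0.555 and 0.695, and 16 of them (35.6%) were lower and 1 was higher by at least 0.2, against 15.1% and 3.36% of all autosomal tiles. These small nucleolar RNA genes are near-identical copies, so reads there may be placed at the wrong copy.

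Genes of chromosome 5 that are often lost in myeloid disease were counted next. Of 19 with a promoter tile, 1 (5.26%) was higher and 4 (21.1%) lower, against 6.92% and 24.1% of all autosomal genes, and the median difference was -0.0250, against -0.0188. MCC, a Wnt pathway regulator, was higher (0.995 and 0.0586), while SPARC, a matrix protein (0 and 0.696), DUSP1, a MAP kinase phosphatase (0 and 0.655), CSNK1A1, casein kinase 1 alpha (0.00519 and 0.309), and NPM1, a nucleolar protein often mutated in leukemia (0.00434 and 0.237), were lower. MCC lies in a bin at 0.81, and the other genes lie in the distal stretch, in bins from -0.11 to 0.01. NPM1 was at 0.00797 and 0.194 on pooled reads and differed by -0.197 on the + strand, each under the limit of 0.2. EGR1 and DIAPH1 were at 0 in both libraries.

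Among 15 cytokine and receptor genes of chromosome 5, 3 (20%) were higher and 4 (26.7%) were lower, against the same shares of 6.92% and 24.1% over all genes. IL5, the eosinophil growth factor (0.867 and 0.0505), TSLP, an epithelial cytokine (0.970 and 0.156), and IL12B (0.493 and 0.183) were higher in SKNO-1. CD74, the invariant chain of MHC class II (0.0293 and 0.932), CD14, the monocyte receptor for lipopolysaccharide (0.426 and 0.892), HAVCR2 (0.334 and 0.607) and OSMR (0.683 and 0.891) were lower. On the + strand alone, OSMR differed by -0.146, under the limit. IL3 (0.9715 and 0.9197) and CSF1R (0.798 and 0.939) were methylated in both libraries.

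The clustered protocadherins, adhesion genes with 51 measured members on chromosome 5, were mostly methylated, with median levels of 0.749 and 0.875. Of them 2 (3.92%) were higher and 11 (21.6%) lower, against 6.92% and 24.1% over all genes, with PCDHGC3 the largest (0.00596 and 0.978) and PCDHGA10 the largest in the other direction (0.598 and 0.0148). Their promoters share sequence within each family, so part of the reads may be exchanged between them.

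Of 30 blood and tumour genes of chromosome 15, 3 (10%) were higher and 5 (16.7%) lower, against 6.92% and 24.1% over all genes. SPRED1, an inhibitor of RAS signalling (0.650 and 0), and SMAD3, an effector of TGF-beta (0.928 and 0.539), were higher in addition to MGA. TCF12, an E-protein transcription factor that partners with RUNX1-RUNX1T1 (0 and 0.970 over 44 sites), NTRK3, a neurotrophin receptor (0.0208 and 0.960), THBS1, an inhibitor of angiogenesis (0.00684 and 0.728), RASGRP1, an activator of RAS (0.230 and 0.730), and ALDH1A3, an enzyme of retinoic acid synthesis (0.680 and 0.951), were lower. ALDH1A3 was at 0.741 and 0.923 on pooled reads and differed by -0.192 on the - strand, each under the limit of 0.2. The TCF12 tile lies upstream of a transcript start, and all of its 44 sites were called lower.

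On chromosome 10 below 25 Mb, 3 of 26 blood and tumour genes (11.5%) were higher and 8 (30.8%) were lower, against 6.92% and 24.1% over all genes. The 3 were MLLT10, VIM and GDI2, while NET1 (0.247 and 0.0514) lay just under the limit. On pooled reads NET1 was at 0.302 and 0.0625, past the limit. Beside ST8SIA6, the lower ones were IL15RA (0.201 and 0.960), BMI1, a Polycomb subunit of stem cell renewal (0.394 and 0.945), GATA3, a T-cell transcription factor (0.405 and 0.947), the RNA-binding protein gene CELF2 (0.521 and 0.996), SFMBT2 (0.0916 and 0.545), IL2RA (0.539 and 0.832) and CAMK1D (0.231 and 0.512). At IL15RA the value of SKNO1-siAE rested on 50 reads. BMI1, GATA3, CELF2 and IL2RA had mean levels from 0.394 to 0.539 in SKNO-1. The strands were uneven at BMI1 and GATA3, with differences of -0.40 and -0.86 on the + and - strand at BMI1 and of -0.97 and -0.30 at GATA3.

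Among 32 developmental transcription factor genes of the segments, 4 (12.5%) were higher and 10 (31.2%) lower, against 6.92% and 24.1% over all genes, with a median difference of -0.124 against -0.0188, and some of them are also on the lists above. The largest losses besides TCF12 were at MEF2C , a factor of blood and muscle development (0.00395 and 0.952), and at the homeobox gene MEIS2 (0.0816 and 0.967). NR3C1, the glucocorticoid receptor, had 0.0538 and 0.633, and OTP had 0.405 and 0.996. NR2F2, SKIDA1, ISL2 (0.355 and 0) and NR2F1 (0.342 and 0.00313) were higher. On pooled reads ISL2 was at 0.197 and 0, under the limit of 0.2, and 2 of its 12 sites were called higher. NR2F1 and NR2F2, paralogous nuclear receptors on chromosomes 5 and 15, were thus both more methylated in SKNO-1.

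Outside promoters, nearly complete differences were also found, and the tiles named here were chosen after their values were seen. An exonic tile of ADAMTS17 (chr15:100672001-100672500) was at 0.996 and 0, and an intronic tile of CHSY1 (chr15:101777501-101778000) at 0.968 and 0, with 1625 reads in SKNO-1 and 355 in SKNO1-siAE. An intronic tile of COL23A1 on chromosome 5 (chr5:177913001-177913500) was at 0.910 and 0. In the other direction, an exonic tile of ITPKA (chr15:41795001-41795500) was at 0 and 0.990, and an intronic tile of FAM171A1 (chr10:15356001-15356500) at 0 and 0.942.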

How the data were processed

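Both MCC-Seq libraries were captured with Roche NimbleGen SeqCap Epi probes. The authors removed adapters, trimmed for quality and length, aligned to hg19 with BSMAP 2.73 and called methylation from unique sequences; the submitters' processing notes also list cutadapt 1.4.2. The deposited values are raw counts of methylated and unmethylated reads per cytosine and strand, at least 5 in every line.

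Levels, tiles, Fisher's exact tests (2-sided, Benjamini-Hochberg) and read ratios, scaled to all reads at shared autosomal sites, were computed from these counts. All 3125690 shared autosomal sites fell on a CpG of GRCh37. Genes came from GENCODE release 44 lifted to GRCh37. The named promoters were the 5 largest differences in each direction in each segment, 1 tile a gene, with ties ordered by the number of sites, and list members that differed by at least 0.2. The segments and gene lists were chosen with earlier results of these data known. The DMR caller of the study was not used, and no p is given across tiles, which are not replicates. The tile and site calls were run on simulated data for chromosome 15. All sites of a changed tile were shifted by well over the limit of 0.2, with reads drawn independently at each site. The tile calls found the changed tiles, which this shift largely ensured, and the site test missed most changed sites. Reads that span several CpGs were not simulated. Alternatives were the minimum depth, pooled reads, merged or single strands, tile size and site minimum, sites of balanced depth, weighting by tile class, and other thresholds. The software was python 3.11.15, numpy 2.4.6, pandas 2.3.3, scipy 1.17.1, numba 0.67.0, pyranges 0.1.4 and matplotlib 3.10.9. Some members of the gene lists are not reported here.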

Additional observations from a re-analysis of the deposited data

How the results depend on the processing

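Each line had 1 library, so no difference between the lines has a replicate check, and read depth limits levels in SKNO1-siAE most, since the segments have fewer reads there. No paired analysis was possible because the groups have 1 sample each. Of 67 alternative values that answer a comparison, 34 stayed close to the reported value, 33 moved. Among those that moved were changes of sign in the mean difference against the other autosomes, which were given no call.

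The log2 read ratio of chromosome 15, chromosome 5 and chromosome 10 below 25 Mb was 0.76, 0.46 and 1.11 over the sites of each library's own, 0.66, 0.60 and 0.83 as the median of 5 Mb bins, 0.48, 0.30 and 0.82 with the median bin of the other autosomes set to 0, and 0.43, 0.28 and 0.77 with at least 10 reads.

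The mean difference against the other autosomes was small and moved most. For chromosome 15 it was -0.00185 with at least 10 reads, 0.00343 with pooled reads, 0.000510 with at least 20 sites, 0.000721 in 1000 bp tiles, 0.000185 on the - strand, -0.0202 at sites with depth within 25% and 0.00325 with the other autosomes weighted by tile class. For chromosome 5 it was -0.000602 with at least 10 reads, 0.00661 with merged strands, 0.000746 with at least 20 sites, 0.00652 on the - strand, 0.00418 with depth within 25% and 0.00730 weighted by class. For chromosome 10 below 25 Mb it was 0.00714 with at least 10 reads, -0.000262 in 1000 bp tiles, -0.00525 on the + strand and 0.00941 with depth within 25%. The cause was not tested.

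At a difference of at least 0.3, 2.63% of segment tiles were higher and 9.32% lower, against 2.09% and 9.67% on the other autosomes. With a range of 0.4 to 0.6, 7.55% were half-methylated in SKNO-1 and 4.08% in SKNO1-siAE, against 6.97% and 4.18% on the other autosomes, so in SKNO1-siAE the segments then lay below them and not above. Of the 30 promoter tiles named for the largest differences, 18 had no value with at least 10 reads, 9 had none on the + strand and 6 had none on the - strand. For these tiles, 86 values stayed past 0.2 in the same direction, VIM with 0.26 on the + strand, and 1 value, that of COMMD3 on the + strand (0.15), did not. Tiles named only as list members are outside this count. Some of them, such as NPM1, ALDH1A3, ISL2 and OSMR, fell under 0.2 on pooled reads or on 1 strand, as given above.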
